A study of Mus musculus with 36 samples.

Results

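Wild-type mouse embryonic stem cells carried from day 3 to day 5 of neural differentiation lowered genes of the epiblast and raised genes of the neural plate, and the 7 libraries described here cover that step in the lines WT7 and WT34. They were chosen by label as all day 3 and day 5 libraries of these lines in the first 2 of 3 experiments, and are 7 of the 36 libraries of the series: 4 on day 3 (WT7 and WT34 in each experiment) and 3 on day 5 (WT7 and WT34 in experiment 1, WT7 alone in experiment 2). The lines are male (B6 × 129S6)F1 lines derived from blastocysts of a Tet1 tm1Koh cross, and the WT lines carry no altered Tet1 allele. Other libraries of the series come from Tet1 KO lines, a catalytic Tet1 mutant and WT cells labelled WT70. Feeder-depleted cells were plated in serum-free N2B27 medium with bFGF, a fibroblast growth factor, which was left out of the medium from day 3 on, so day 3 cells had grown with bFGF and day 5 cells had last received it at day 3. The labels give no inhibitor or activin treatment for any of the 7 libraries. The fit removes the mean difference between experiments, so p-values measure the spread left among these libraries. Because 2 lines supplied all 7 libraries, they do not measure the spread among independently derived lines.

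In this protocol cells leave the naive pluripotent state, pass through a formative state that resembles the early post-implantation epiblast, and then take up the identity of the neural plate. Nodal and FGF signals maintain the epiblast, whereas neural induction follows when Nodal and BMP signals are low. Wnt, BMP, FGF8, Hedgehog and retinoic acid then pattern the neural plate from front to back and from its dorsal edge, the roof plate and neural crest, to its ventral midline, the floor plate. N-cadherin replaces E-cadherin during the same passage, and Notch signalling keeps the progenitors dividing.

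Poly-A RNA was sequenced, and the 7 libraries held 12780148 to 26307363 estimated counts, with 1.21% to 2.97% of them on mitochondrial genes. Levels are given as CPM, counts relative to the library total, scaled with TMM factors over all 36 libraries. Day 3 values are listed for WT7 and WT34 of experiment 1 and then WT7 and WT34 of experiment 2, and day 5 values for WT7 and WT34 of experiment 1 and then WT7 of experiment 2. The first principal component of the 7 libraries held 55.8% of the variance and separated the days, with day 3 libraries between -49.5 and -47.3 and day 5 libraries between 60.95 and 67.8. The second, with 18.4%, set the WT7 library of experiment 2 on day 5, at 65.6, apart from the other day 5 libraries, at -29.9 and -33.1, so the text gives calls and list counts that change without it. No WT line of experiment 2 other than WT7 had a day 5 library. WT7 of experiment 1 was at -29.9 on day 5, so the day 5 libraries of WT7 shared the line and differed in experiment. With 1 WT library on day 5 of experiment 2, a difference of the experiment and one of that culture cannot be told apart. As a check of the label, the neural progenitor genes Sox1 and Sox21 were higher in all 3 day 5 libraries than in the 4 day 3 libraries, and the progenitor factor Sox2 stayed between 83.9 and 176 CPM on both days. Of the 15 neural progenitor genes counted below, 9 rose, 5 did not pass and 1, Nes, fell.

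Of 16508 genes tested with edgeR's quasi-likelihood test, 1164 rose (7.05%) and 1313 fell (7.95%) at a Benjamini-Hochberg adjusted p below 0.05 and a log2 fold change beyond 1, together 15% of the genes tested. Adjusted p-values below come from this fit, with experiment as a term, and fold changes are log2 values with their standard error (SE). Day 3 and day 5 libraries did not overlap in 44.2% of all tested genes and in 2309 of the 2477 changed genes. When the experiments were fitted apart, 2408 of the 2413 changed genes that could be fitted in both moved the same way in both. The same held for 69.45% of the 13560 genes that did not change. The changed genes were called from these same libraries, so this agreement is a description and not a replication. Lists of genes with a shared role were counted below. A gene could enter the test through the day on which it was high, so counts of tested members describe those members and not the whole list. The median log2 fold change over all tested genes was 0.015.

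**Figure D1:**
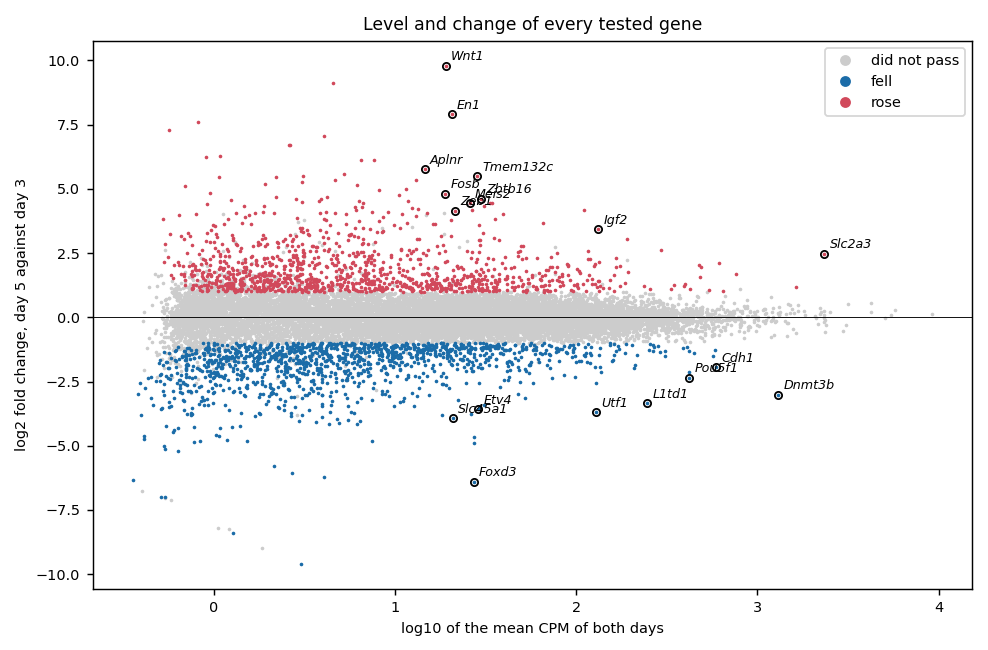
Level and change of each of the 16508 tested genes. The x axis is the log10 of the mean CPM of both days, the y axis the log2 fold change of day 5 against day 3, and points are coloured where they passed in either direction. Slc2a3 and Dnmt3b stand out among abundant genes, while Wnt1 and Foxd3 have the furthest changes of the labelled genes.

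Among genes of at least 20 CPM on the higher day whose libraries did not overlap, the steepest rises were led by Wnt1 (chr15:98789857-98793837, mm10), the midbrain and roof plate ligand, with 3 counts in all on day 3. For Wnt1 the day 3 libraries held 0, 0, 0.148 and 0.0371 CPM and the day 5 libraries 24.7, 32.8 and 56.5 CPM, all higher than on day 3. Its day 5 level was 889 times that of day 3 (95% interval of the counts 304 to 4314). Next came En1, a midbrain homeobox gene, at 7.92 ± 0.40 (SE, adjusted p = 1.34e-05). Aplnr, which encodes the apelin receptor, rose by 5.77 ± 0.54 (SE, adjusted p = 2.45e-04), and Tmem132c, a transmembrane protein gene, by 5.49 ± 0.13 (SE, adjusted p = 4.36e-07). All 3 Aplnr libraries of day 5 exceeded those of day 3, and WT7 of experiment 2, at 70.8 CPM, was far above the other day 5 libraries, at 7.26 and 7.76 CPM. Without it the log2 fold change was 3.83. Among the other 8 were the transcription factor genes Nr2f2 (5.00 ± 0.28), Zfp503 (4.75 ± 0.22), Zbtb16 (4.62 ± 0.32) and Meis2 (4.45 ± 0.15), the last a partner of Pax and Hox proteins. Mylk, the myosin light chain kinase gene (4.52 ± 0.40), Ildr2 (4.46 ± 0.30), the BMP target Id1 (4.43 ± 0.22) and Fosb were the rest.

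Fosb, an immediate early gene that responds to stimulation within minutes, differed from these. Fosb levels ran at 0.697, 0.429, 0.444 and 0.854 CPM on day 3 and at 46.7, 62.9 and 1.76 CPM on day 5, all higher than on day 3. The 2 day 5 libraries of experiment 1 were high and that of experiment 2 was near the day 3 level. Its call (log2 fold change 4.82 ± 1.03, adjusted p = 0.0131) was lost without WT7 of experiment 1 on day 3, where the adjusted p was 0.0649. Egr2, counted among hindbrain genes because it marks rhombomeres and also an immediate early gene, had the same shape. The Egr2 level was 2.02, 0.644, 1.93 and 1.74 CPM on day 3 and 42.1, 48.4 and 4.25 CPM on day 5, all higher than on day 3, with a log2 fold change of 3.63 ± 0.87 (SE, adjusted p = 0.019). Its adjusted p was 0.0872 without the same library and 0.0533 with line within experiment as a block.

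The steepest falls were led by Foxd3 (chr4:99656299-99658622), a pluripotency and neural crest factor, at -6.39 ± 0.21 (SE, adjusted p = 1.29e-06). Genes that mark the undifferentiated state made up several others: the noncoding RNA Platr10 (-4.89 ± 0.18), the RNA-binding protein gene L1td1 (-3.35 ± 0.11) and the chromatin factor Utf1 (-3.69 ± 0.26). Spp1, which encodes osteopontin, fell by 4.65 on the log2 scale, and the intermediate filament gene Prph by 3.49. Transporter genes among the 12 were the sugar transporter Slc45a1 (-3.92 ± 0.12), the nucleotide sugar carrier family member Slc35d3 (-3.76 ± 0.098) and the fatty acid transporter Slc27a2 (-3.40 ± 0.15). The ETS factor Etv4 and Mal2 (-3.46 ± 0.16) were also among them. Spp1 libraries held 39.5 to 61.1 CPM on day 3 and 1.55 to 2.72 CPM on day 5.

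In TPM, a scale relative to all transcripts that corrects for transcript length, the largest rise belonged to Slc2a3 (chr6:122727809-122801640), the high-affinity glucose transporter of neurons and embryos, from a mean of 260.04 to 1441 TPM. Slc2a3 was at 838, 775, 611 and 584 CPM on day 3 and at 4267, 4104 and 3572 CPM on day 5, each above the day 3 range, with a log2 fold change of 2.48 ± 0.059 (SE, adjusted p = 4.36e-07). The glycolytic genes Gpi1 (1.02 ± 0.063) and Pgk1 (1.71 ± 0.10) were also among the 8 largest TPM rises. With them stood the imprinted gene Mest (2.12 ± 0.40, and 1.37 without WT7 of experiment 2 on day 5), Igfbp2, which binds insulin-like growth factors (1.57 ± 0.064), Greb1l (3.04 ± 0.09), Bnip3l, a mitophagy receptor gene (1.33 ± 0.078), and Ccnd2 (cyclin D2, 1.96 ± 0.077). The largest TPM falls were in Bc1, a short RNA polymerase III transcript, from 6601 to 1890 TPM, Snurf, from 2721 to 914 TPM, and its neighbour Snhg14. Bc1 and Snurf are very short, so their TPM is large for few counts, and Snurf shares its transcript with Snrpn, so the division of counts between these genes is uncertain. Pou5f1 (-2.35 ± 0.093), the kinase gene Pim2 (-2.13 ± 0.057), Dnmt3b (-3.02 ± 0.068), the maternally expressed noncoding RNA Rian (-1.28 ± 0.10) and Cd59b (-1.06 ± 0.074) made up the rest. Without WT7 of experiment 2 on day 5, Cd59b had a log2 fold change of -0.997 and did not pass, and Gpi1 fell short of the fold limit without WT34 of experiment 1 on either day (0.98 and 0.98).

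Genes of the epiblast fell together. Of 16 formative and primed epiblast genes, all tested, 13 fell and none rose, with a median log2 fold change of -2.04. Pou3f1, a POU factor of the epiblast and early neural plate, illustrates the fall. For Pou3f1 the day 3 libraries held 245, 221, 217 and 202 CPM and the day 5 libraries 56.2, 60.9 and 40.04 CPM, each below the day 3 range, with a log2 fold change of -2.12 ± 0.10 (SE, adjusted p = 4.50e-06). The amino acid transporter gene Slc7a3 (-1.96 ± 0.11) and the growth factor gene Fgf5 (-2.57 ± 0.15), both high in the formative state, fell with it. The other 3 members did not pass: Otx2 (-0.14 ± 0.079), which is shared by epiblast and forebrain, and the RNA-binding protein genes Lin28a (0.041 ± 0.052) and Lin28b (-0.33 ± 0.19). Among naive pluripotency genes, 7 of 11 tested members of 14 listed fell, with Fgf4 (-2.47 ± 0.20), Tfcp2l1 (-1.47 ± 0.17) and Esrrb (-2.89 ± 0.29) of smallest p and Zfp42 the lowest (-3.04 ± 0.38). Their day 3 levels were already low, at most 10.7 CPM for Esrrb and 6.62 CPM for Zfp42. Nanog did not pass (-0.034 ± 0.15), and lay between 26.9 and 75.7 CPM on day 3 and 33.3 and 51.7 CPM on day 5. Klf4 and Klf2 were split by experiment. Klf4 levels ran at 4.88, 5.15, 3.78 and 5.79 CPM on day 3 and at 35.02, 43.7 and 3.44 CPM on day 5, so the days overlapped. The Klf2 level was 8.5, 8.37, 6.44 and 5.87 CPM on day 3 and 50.9, 50.1 and 1.15 CPM on day 5, so the days overlapped. Neither passed (adjusted p = 0.0991 and 0.311), and without WT7 of experiment 2 on day 5 both did, with log2 fold changes of 2.99 and 2.60.

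Germline genes, some of which are also active in pluripotent cells, fell in 5 of 7 tested members of 13 listed. Sycp3, a part of the synaptonemal complex, fell by 3.44 on the log2 scale, and the Piwi-pathway genes Ddx4 (-1.80 ± 0.26) and Tdrd12 (-2.50 ± 0.39) also fell. Mael had 3 counts on day 5 and 50 on day 3, a day 5 to day 3 ratio of 0.101 (95% interval 0.0201 to 0.312). Of 13 genes that write, read or remove DNA methylation, the 3 that fell were the de novo enzymes Dnmt3b and Dnmt3a and their cofactor Dnmt3l (-2.56 ± 0.26). Dnmt3b was at 2418, 2296, 2350 and 2168 CPM on day 3 and at 291, 311 and 256 CPM on day 5, all lower than on day 3, with a log2 fold change of -3.02 ± 0.068 (SE, adjusted p = 4.36e-07). Dnmt3a fell by 1.04, close to the fold limit, and its call was lost without WT7 of experiment 1 on day 3 (-0.997) or WT34 on day 5 (-0.99). The maintenance genes Dnmt1 (0.07 ± 0.091) and Uhrf1 (0.19 ± 0.094) did not pass. Among the Tet genes, whose enzymes oxidise methylcytosine, Tet2 rose. For Tet2 the day 3 libraries held 10.6, 8.15, 11.6 and 11.5 CPM and the day 5 libraries 17.5, 20.9 and 43.5 CPM, all higher than on day 3, with a log2 fold change of 1.44 ± 0.19 (SE, adjusted p = 5.91e-04). Tet1 had a log2 fold change of -0.80 ± 0.12, below the fold limit, which it passed without WT7 of experiment 2 on day 5 (-1.04), and Tet3 of 0.10 ± 0.11.

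Nodal signalling genes followed the epiblast genes. Of the 12 members, all tested, 8 fell and 1 rose. The ligand genes Nodal (-1.92 ± 0.18), Gdf3 (-4.05 ± 0.28) and Gdf1 (-2.09 ± 0.37), the co-receptor gene Tdgf1 (-1.67 ± 0.34), the feedback inhibitor Lefty1 and the nuclear partner Foxh1 (-1.07 ± 0.079) were lower on day 5. Lefty1 levels ran at 11.8, 13.1, 9.33 and 7.2 CPM on day 3 and at 0.454, 1.24 and 0.405 CPM on day 5, all lower than on day 3, with a log2 fold change of -3.99 ± 0.32 (SE, adjusted p = 5.26e-05). The Nodal level was 14.1, 13.6, 20.4 and 14.3 CPM on day 3 and 4.16, 3.49 and 4.12 CPM on day 5, all lower than on day 3. Lefty2 fell by 2.11 (adjusted p = 0.0344), with an adjusted p of 0.0615 when line within experiment was a block, and its call was also lost without either experiment 1 library on day 3 or day 5. The receptor genes Acvr2a, Acvr2b and Acvr1b did not pass the fold limit. Cer1, a secreted antagonist of Nodal, BMP and Wnt, was the member that rose, by 6.14 ± 1.07 (SE, adjusted p = 0.00419), with 35.2 CPM in WT7 of experiment 2 against 1.24 and 2.04 CPM in the other day 5 libraries. Without the former its log2 fold change was 2.52.

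FGF pathway genes split. Of 22 genes, all tested, 6 fell and 3 rose. The ETS factor genes that FGF receptors induce fell: Etv4 (chr11:101769742-101785371), Etv5 and Etv1 (-1.53 ± 0.21). Etv4 was at 56.9, 54.5, 45.1 and 55.7 CPM on day 3 and at 3.33, 2.33 and 7.16 CPM on day 5, each below the day 3 range, with a log2 fold change of -3.59 ± 0.31 (SE, adjusted p = 1.71e-04). For Etv5 the day 3 libraries held 234, 216, 173 and 176 CPM and the day 5 libraries 55.1, 55.8 and 47.9 CPM, each below the day 3 range, with a log2 fold change of -1.94 ± 0.061 (SE, adjusted p = 1.15e-06). Among feedback inhibitors, Spry4 fell by 1.38, but without WT7 of experiment 2 on day 5 its log2 fold change was -0.88 and it did not pass. Dusp6 (-0.51 ± 0.22), Dusp4 (-0.24 ± 0.16), Spry2 (-0.35 ± 0.16) and Spred2 (-0.35 ± 0.067) did not pass, and Spry1 was nearly level (0.18 ± 0.13). The receptor genes Fgfr2 (1.64 ± 0.13) and Fgfr3 (2.07 ± 0.21) rose, as did the isthmic ligand Fgf8 (1.82 ± 0.46). Fgf8 levels ran at 1.39, 0.429, 8.15 and 3.3 CPM on day 3 and at 1.66, 2.64 and 26.6 CPM on day 5, so the days overlapped. Fgf8 was high in WT7 of experiment 2 alone and lost its call without that library (1.24, adjusted p = 0.189).

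**Figure D2:**
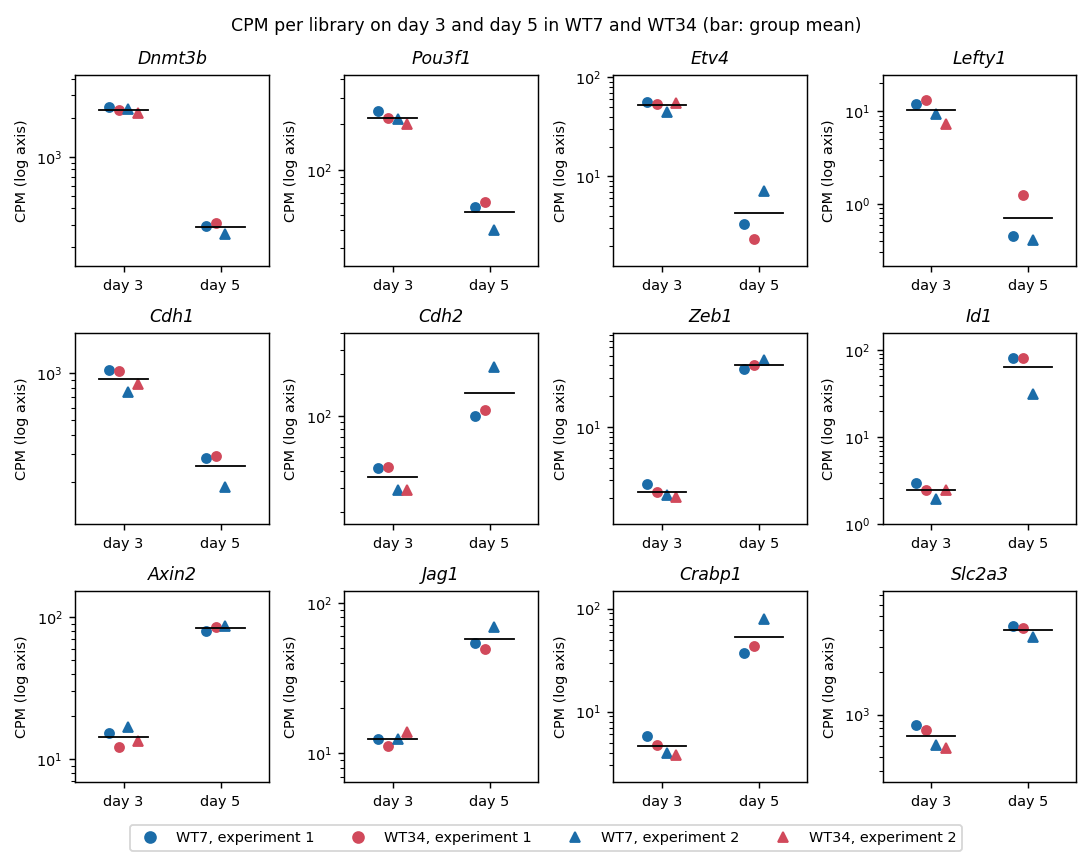
CPM of 12 genes in each library on a log axis, with day 3 and day 5 side by side. Circles are experiment 1, triangles experiment 2, blue WT7, red WT34, and black bars the group means. In each panel the 4 day 3 libraries and the 3 day 5 libraries do not overlap.

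BMP pathway genes rose in 14 of 23 tested members of 24 listed, 1 fell, and the median was 1.85. The Id genes, direct targets that block bHLH factors, all rose: Id1, Id2 (2.78 ± 0.12), Id3 (1.83 ± 0.10) and Id4 (2.55 ± 0.22). The feedback genes Smad6, Smad7 and Bambi did not pass. With line within experiment as a block their log2 fold changes were 0.46, -0.41 and 0.44. The Id1 level was 3.0, 2.5, 1.93 and 2.49 CPM on day 3 and 80.9, 82.1 and 31.0 CPM on day 5, each above the day 3 range, with a log2 fold change of 4.43 ± 0.22 (SE, adjusted p = 9.59e-06). Id3 was at 43.5, 35.3, 15.9 and 14.9 CPM on day 3 and at 150.4, 124 and 54.1 CPM on day 5, all higher than on day 3. Levels in experiment 2 on day 5 were below those of experiment 1, and above day 3 in both. Ligands also rose: Bmp4 (3.75 ± 0.25), Bmp7 (2.36 ± 0.10), Bmp2 (1.63 ± 0.34) and Bmp5 (3.05 ± 0.40). Secreted antagonists were among the same risers, Grem1 by 5.27 ± 0.41 (SE, adjusted p = 4.69e-05) and Nog by 2.19 ± 0.22 (SE, adjusted p = 1.49e-04), whereas Chrd (0.68 ± 0.55) and Fst (0.81 ± 0.20) did not pass. Of the receptor genes, Bmpr1b was the member that fell (-1.33 ± 0.19), and Bmpr1a (0.22 ± 0.075) and Bmpr2 (0.15 ± 0.093) did not pass.

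Of 28 tested Wnt pathway genes of 29 listed, 15 rose and none fell, and the median was 1.31. Of the feedback targets of beta-catenin in the list, these rose: Axin2, Sp5 (3.59 ± 0.18), Nkd1 (2.81 ± 0.18), Rnf43 (1.61 ± 0.24) and Dkk1 (2.57 ± 0.29). Other feedback genes, Znrf3 (-0.33 ± 0.18) and Notum (0.15 ± 0.38), did not pass. For Axin2 the day 3 libraries held 15.2, 12.1, 16.8 and 13.5 CPM and the day 5 libraries 80.3, 84.9 and 87.1 CPM, all higher than on day 3, with a log2 fold change of 2.59 ± 0.11 (SE, adjusted p = 2.41e-06). Ligands that rose were Wnt1, Wnt8b of the forebrain roof plate (7.06 ± 0.46), Wnt6 (4.04 ± 0.33) and Wnt5a (1.91 ± 0.43). Secreted antagonists rose beside them, Frzb by 3.78 ± 0.15 (SE, adjusted p = 2.24e-06), Sfrp1 by 2.07 ± 0.058 (SE, adjusted p = 8.89e-07) and Sfrp2 by 1.16 ± 0.072 (SE, adjusted p = 1.55e-05). The receptor genes Fzd10 (2.49 ± 0.098) and Fzd3 (1.67 ± 0.086) rose, while Fzd7 had a log2 fold change of -0.72 ± 0.17 and did not pass. The nuclear factors Lef1 (-0.77 ± 0.19), Tcf7 (-0.42 ± 0.098), Tcf7l1 (-0.46 ± 0.12) and Tcf7l2 (0.19 ± 0.16) did not pass. Without WT7 of experiment 2 on day 5, Wnt5a (0.92) and Wnt8a (0.44) did not pass, while Lef1 (-1.18) and Fzd7 (-1.07) fell.

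The bases before the annotated starts of BMP and Wnt target genes that rose were searched for the letters of the matching response elements, GGCGCC for the GC-rich SMAD element and CTTTGA for the TCF/LEF core, on both strands. RefSeq (GRCm38.p6) gave a window for 5 of the 6 BMP targets looked up (Id2, Id3, Id4, Msx1 and Msx2, with Id1 missing) and for 5 of the 6 Wnt genes (Axin2, Sp5, Nkd1, Rnf43 and Dkk1, with Wnt8a missing and Rnf43 with 2 windows). GGCGCC was present in 2 of these BMP target windows and in 9.65% of 32536 windows, and CTTTGA in 2 of the Wnt gene windows and in 13.9% of all windows. The 4 windows shown are those with a match, chosen from the windows searched. Each gives the 250 bases before the start, 5′ to 3′ on the gene's strand, with the match in capitals (TCAAAG is CTTTGA read on the other strand).
Id2 (chr12:25096093-25096342, minus strand): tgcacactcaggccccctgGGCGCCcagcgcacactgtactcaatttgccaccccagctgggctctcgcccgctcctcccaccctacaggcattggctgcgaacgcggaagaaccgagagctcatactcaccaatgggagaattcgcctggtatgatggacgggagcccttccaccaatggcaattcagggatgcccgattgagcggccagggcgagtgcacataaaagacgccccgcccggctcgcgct
Id4 (chr13:48260866-48261115, plus strand): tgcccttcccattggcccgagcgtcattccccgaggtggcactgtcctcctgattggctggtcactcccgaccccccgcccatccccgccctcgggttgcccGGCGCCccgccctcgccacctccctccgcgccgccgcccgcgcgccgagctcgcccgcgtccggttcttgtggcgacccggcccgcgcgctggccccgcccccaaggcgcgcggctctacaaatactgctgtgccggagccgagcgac
Sp5 (chr2:70474673-70474922, plus strand): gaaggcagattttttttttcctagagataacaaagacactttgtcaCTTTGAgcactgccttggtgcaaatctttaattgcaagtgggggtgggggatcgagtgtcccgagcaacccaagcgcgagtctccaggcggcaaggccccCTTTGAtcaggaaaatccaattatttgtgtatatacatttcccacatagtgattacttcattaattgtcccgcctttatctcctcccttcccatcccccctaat
Dkk1 (chr19:30549497-30549746, minus strand): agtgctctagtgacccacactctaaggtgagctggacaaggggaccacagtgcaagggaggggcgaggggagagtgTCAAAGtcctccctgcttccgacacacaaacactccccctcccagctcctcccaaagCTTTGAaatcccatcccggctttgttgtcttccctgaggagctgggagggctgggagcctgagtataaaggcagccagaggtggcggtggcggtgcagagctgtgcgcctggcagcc
Of the 4 windows shown, that of Id4 is the richest in G and C (75.6%, with 35 CpG) and that of Sp5 the poorest (46%, with 6 CpG). The Sp5 and Dkk1 windows hold 2 matches each. A match describes the letters and does not show that a factor binds there.

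Retinoic acid genes rose in 7 of 11 tested members of 13 listed and 1 fell, the synthesis gene Aldh1a3 (-1.01 ± 0.31), which did not pass with line within experiment as a block (adjusted p = 0.104). Its call was also lost without any 1 of day 3 replicates 1, 2 and 4 or day 5 replicates 1 and 2, at -0.96 to -1.03. The binding protein gene Crabp1 rose in each day 5 library. Crabp1 levels ran at 5.85, 4.72, 4.0 and 3.82 CPM on day 3 and at 36.99, 43.5 and 80.2 CPM on day 5, all higher than on day 3, with a log2 fold change of 3.59 ± 0.29 (SE, adjusted p = 1.16e-04). Genes of retinoic acid breakdown rose as well, Cyp26a1 by 3.32 ± 0.43 (SE, adjusted p = 7.54e-04), Cyp26b1 by 2.06 ± 0.46 (SE, adjusted p = 0.0072), and Cyp26c1 from 1 count on day 3 to a level 145 times higher (95% interval 25.3 to 5776). Stra6, the retinol importer (2.86 ± 0.16), and Crabp2 (1.21 ± 0.10) rose. Aldh1a2, the synthesis enzyme of the trunk mesoderm, rose by 4.54 ± 0.92 (SE, adjusted p = 0.00675), with 19.11 CPM in WT7 of experiment 2 and 0.908 and 1.94 CPM in experiment 1, and its adjusted p was 0.057 with line within experiment as a block.

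Notch pathway genes rose in 5 of 15 tested members of 17 listed, and none fell. Ligands and targets among those that rose were Jag1, Dll1 (2.29 ± 0.13), Hes5 (3.32 ± 0.29) and Hes3 (5.49 ± 0.69), the last a target gene of the isthmus. The ligand gene Jag2 had a log2 fold change of -0.65 and did not pass. Nor did the target genes Hey1, Hey2 and Nrarp, at 0.79, 0.34 and 0.77 with line within experiment as a block. The Jag1 level was 12.5, 11.2, 12.4 and 13.9 CPM on day 3 and 54.01, 49.4 and 68.6 CPM on day 5, all higher than on day 3, with a log2 fold change of 2.25 ± 0.091 (SE, adjusted p = 2.24e-06). Hes5 was at 0.627, 0.501, 1.18 and 0.928 CPM on day 3 and at 3.71, 3.73 and 15.1 CPM on day 5, each above the day 3 range. Hes5 in WT7 of experiment 2 was well above the other day 5 libraries. Dll3 rose close to the fold limit (1.10 ± 0.29) and lost its call without WT7 of experiment 2 on day 5 (0.49). The receptor genes Notch1 (0.53 ± 0.077), Notch2 (0.68 ± 0.11) and Notch3 (0.31 ± 0.072) had higher means with adjusted p below 0.05, and stayed under the fold limit, as did Hes1 (0.59 ± 0.091).

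Neural progenitor genes rose in 9 of 15 members, all tested, and 1 fell. Sox21 (3.85 ± 0.21), Sox1 (4.03 ± 0.34), Ncam1 (1.63 ± 0.076) and Cdh2 were higher on day 5. Nes, which encodes the intermediate filament nestin, was the member that fell. For Nes the day 3 libraries held 488, 479, 348 and 407 CPM and the day 5 libraries 215, 212 and 127 CPM, each below the day 3 range, with a log2 fold change of -1.31 ± 0.095 (SE, adjusted p = 3.48e-05). Vim, the other progenitor filament, rose by 1.20 ± 0.15 (SE, adjusted p = 7.14e-04), with a log2 fold change of 0.89 and no call when WT7 of experiment 2 was left out. Sox2 (0.21 ± 0.14), Sox3 (0.38 ± 0.14), Sox4 (0.13 ± 0.061) and Sox11 (0.89 ± 0.085) did not pass. Neuronal genes went both ways: of 15 tested of 18 listed, 5 fell and 3 rose. Among those that rose were the proneural factor gene Neurog2 (2.72 ± 0.46) and the RNA-binding protein gene Elavl4 (1.42 ± 0.21). Cytoskeletal genes of neurons fell, Ina (-2.43 ± 0.15) and Tubb3, which encodes the neuronal beta-tubulin (-1.36 ± 0.14), together with Elavl3 (-1.85 ± 0.33). Tubb3 levels ran at 130.5, 124, 93.01 and 100.02 CPM on day 3 and at 42.3, 37.3 and 49.4 CPM on day 5, each below the day 3 range. The Ina level was 73.8, 70.2, 72.9 and 66.9 CPM on day 3 and 16.9, 14.1 and 9.72 CPM on day 5, each below the day 3 range. Stmn2, another neuronal microtubule gene, did not pass (0.22 ± 0.19).

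Genes rose in the forebrain, midbrain and hindbrain lists, while most of the hindbrain and caudal list was too low to test. All 10 tested forebrain and eye genes rose, of 15 listed, led by Nr2f1 (6.13 ± 0.47) and Fezf2 (5.33 ± 0.31). Nr2f1 was at 0.418, 0.286, 0.148 and 0.111 CPM on day 3 and at 9.83, 9.86 and 25.8 CPM on day 5, all higher than on day 3. The summed level of the list was 4.86 to 7.52 CPM on day 3 and 60.5 to 65.98 CPM on day 5. Hesx1 rose (1.76 ± 0.41) with day 5 values of 3.33 and 3.34 CPM in experiment 1 and 0.608 CPM in experiment 2, the last within the day 3 range. In the midbrain and isthmus list 7 of 12 tested genes of 13 listed rose, and in the hindbrain and caudal list 6 of 7 tested of 16 listed. Pax2 (5.17 ± 0.22), a marker of the isthmus, and Dmbx1 (4.67 ± 0.41), of the midbrain, rose. Pax5 rose too. For Pax5 the day 3 libraries held 0.697, 1.14, 0.815 and 0.928 CPM and the day 5 libraries 4.84, 4.27 and 42.9 CPM, all higher than on day 3, with a log2 fold change of 4.12 ± 0.67 (SE, adjusted p = 0.003). En2 had 19.11 CPM in WT7 of experiment 2 and at most 1.47 CPM in the other libraries, and its adjusted p without that library was 0.106. In the hindbrain and caudal list, Irx3 (2.56 ± 0.26) and Irx5 (2.51 ± 0.35) rose, while 9 listed genes, 5 Hox and 3 Cdx genes among them, were too low to test. Hoxb1 was at 3.11 CPM in WT7 of experiment 2 on day 5 and at most 0.111 CPM in the other libraries.

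Roof plate and dorsal genes rose in 7 of 12 tested members of 14 listed and fell in 2. Rspo2, which encodes a secreted enhancer of Wnt signals, rose by 4.61 ± 0.46 (SE, adjusted p = 1.40e-04), and Msx1, a BMP target, by 2.91 ± 0.24 (SE, adjusted p = 6.06e-05). Lmx1a had 3 counts on day 3 and was 122 times higher on day 5 (95% interval 41.3 to 597). The members that fell were Zic5 (-1.79 ± 0.12) and Rspo1 (-1.52 ± 0.18), and Zic2 was lower without reaching the fold limit (-0.79 ± 0.17), which it did without WT7 of experiment 2 on day 5 (-1.14). Neural crest genes rose in 9 of 10 tested members of 12 listed, with Pax3 (5.57 ± 0.42), Pax7 (4.59 ± 0.75), Sox9 (1.94 ± 0.16) and Ets1 (1.49 ± 0.15), and Sox10, the factor that defines migrating crest, lay below 1.3 CPM in every library. In the floor plate and Hedgehog list 4 of 10 tested genes of 13 listed rose and 3 fell, and without WT7 of experiment 2 on day 5 3 rose and 5 fell, with Gli3 no longer past the fold limit (0.81) and Gli1 and Nkx6-2 (-1.58) falling. Hhip, a target of Hedgehog signalling, was among those that fell, and Gli1, another, was lower in the experiment 1 libraries (-3.24 without WT7 of experiment 2). Hhip levels ran at 4.53, 4.29, 4.67 and 4.16 CPM on day 3 and at 1.97, 0.621 and 2.3 CPM on day 5, all lower than on day 3, with a log2 fold change of -1.38 ± 0.37 (SE, adjusted p = 0.0164). The Gli1 level was 8.85, 8.87, 10.3 and 11.4 CPM on day 3 and 0.53, 1.32 and 10.1 CPM on day 5, so the days overlapped, with a log2 fold change of -1.54 ± 0.65 (SE, adjusted p = 0.0992). Ptch1 was 156 CPM in WT7 of experiment 2 and 36.5 and 46.5 CPM in experiment 1 on day 5, and did not pass (0.58 ± 0.40). The floor plate factor Foxa2 (2.12 ± 0.40, and 1.22 without WT7 of experiment 2 on day 5) and the ventral factor Nkx6-1 (3.25 ± 0.22) rose, Olig2 fell (-1.91 ± 0.27), and Shh itself was at 7.56 CPM in WT7 of experiment 2 and at most 0.466 CPM elsewhere.

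**Figure D3:**
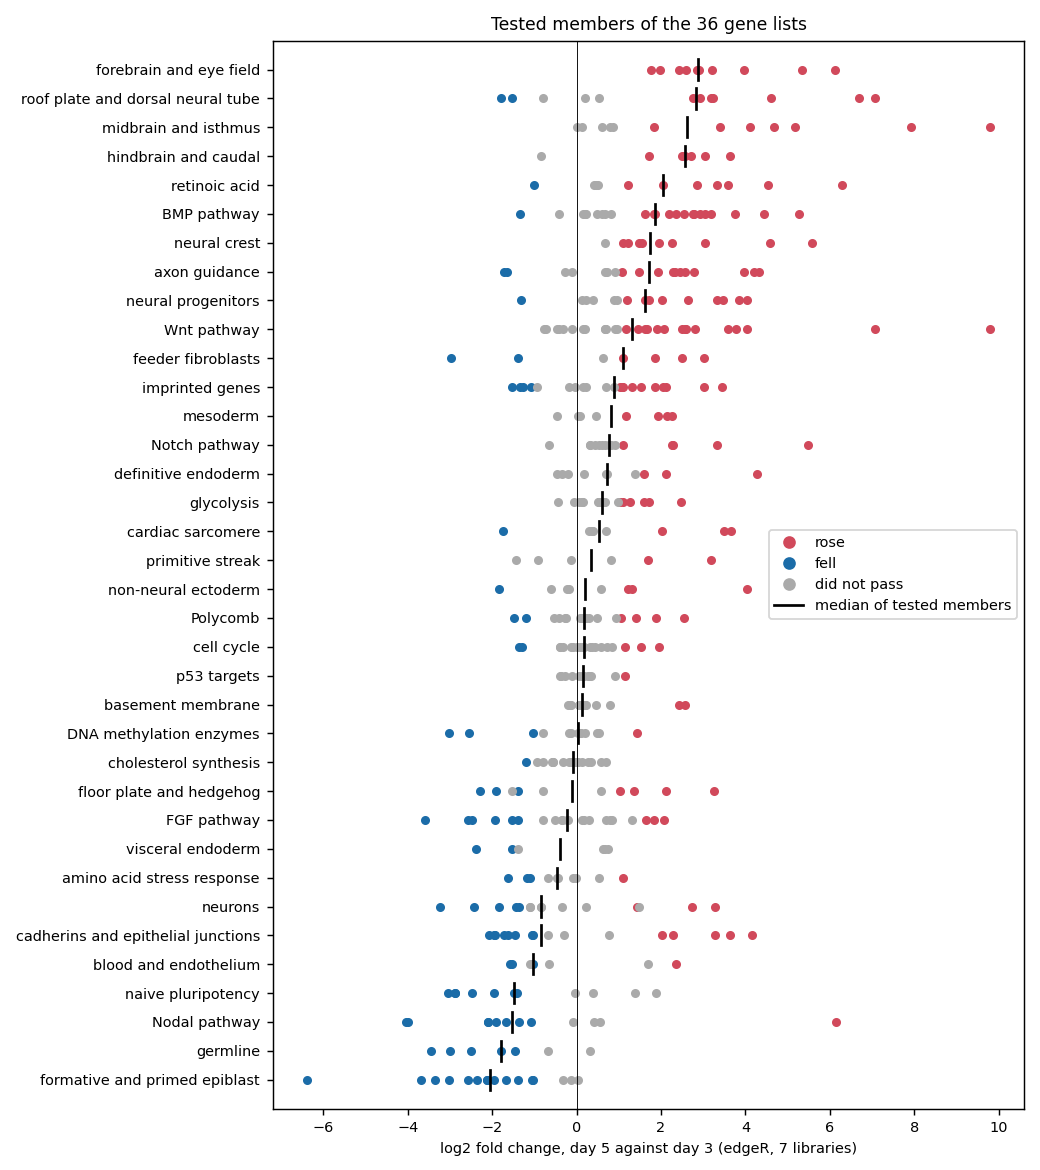
Log2 fold change of day 5 against day 3 of every tested member of the 36 lists, ordered by the median of each list (black bar). Red members rose, blue members fell and grey members did not pass. The forebrain, roof plate, midbrain and hindbrain lists have the highest medians, and the formative and primed epiblast list the lowest.

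Adhesion genes changed in opposite directions by type. Of 16 cadherin and junction genes, all tested, 8 fell and 5 rose, and without WT7 of experiment 2 on day 5 5 fell and 5 rose, since Cdh3, Ocln and Cldn4 lost their calls. Cdh1 (E-cadherin) fell while Cdh2 (N-cadherin), Cdh6 (3.27 ± 0.15) and Cdh11 (3.64 ± 0.24) rose. Cdh1 was at 1048, 1038, 754 and 858 CPM on day 3 and at 283, 292 and 185 CPM on day 5, each below the day 3 range, with a log2 fold change of -1.94 ± 0.074 (SE, adjusted p = 2.21e-06). For Cdh2 the day 3 libraries held 42.2, 42.9, 29.2 and 29.1 CPM and the day 5 libraries 100.4, 110.2 and 226 CPM, each above the day 3 range, with a log2 fold change of 2.03 ± 0.34 (SE, adjusted p = 0.00484). The repressors of E-cadherin Zeb1 and Zeb2 (2.29 ± 0.09) rose, and Zeb1 had the highest fold change of the list. Zeb1 levels ran at 2.79, 2.29, 2.15 and 2.08 CPM on day 3 and at 36.7, 40.1 and 44.9 CPM on day 5, each above the day 3 range, with a log2 fold change of 4.16 ± 0.13 (SE, adjusted p = 1.18e-06). Tight junction and epithelial genes fell: Cldn6 (-1.95 ± 0.056), Rab25 (-2.09 ± 0.31), Cldn7 (-1.63 ± 0.20) and the epithelial splicing factor gene Esrp1 (-1.72 ± 0.13). Cldn4 fell (-1.46 ± 0.35) with 106, 107 and 21.7 CPM on day 5, and without the last library it did not pass (-0.92).

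Axon guidance genes rose in 11 of 18 tested members of 20 listed and fell in 2. Among ephrin genes and their receptors, Efnb1 rose by 4.33 ± 0.26 (SE, adjusted p = 3.04e-05), Epha7 by 2.77 ± 0.084 (SE, adjusted p = 9.70e-07) and Epha4 by 2.32 ± 0.093 (SE, adjusted p = 2.24e-06), Efna5 also rose (1.47 ± 0.12), the receptor gene Epha5 fell (-1.64 ± 0.41), and Efna2 (0.67 ± 0.18) and Efnb2 (0.90 ± 0.058) did not pass. The Epha7 level was 13.7, 13.2, 12.1 and 13.6 CPM on day 3 and 79.6, 90.9 and 94.9 CPM on day 5, each above the day 3 range. The repellent gene Sema3a (3.96 ± 0.15), the netrin receptor gene Dcc (4.20 ± 0.37), Slit1 (2.57 ± 0.24) and Ntn1 (1.94 ± 0.14) rose with them. Sema6a, which encodes a membrane-bound semaphorin, fell. Sema6a was at 274, 258, 203 and 215 CPM on day 3 and at 87.4, 94.7 and 50.9 CPM on day 5, all lower than on day 3, with a log2 fold change of -1.72 ± 0.11 (SE, adjusted p = 1.83e-05). In the basement membrane list 2 of 14 genes rose, the linked collagen genes Col4a5 (2.58 ± 0.25) and Col4a6 (2.42 ± 0.21).

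Metabolic and cell cycle lists were mostly below the fold limit. Of 18 tested glycolysis genes 6 rose and none fell: Slc2a3, Pgk1, Pfkl (1.11 ± 0.068), Gpi1, Aldoc (1.59 ± 0.16) and Pfkp (1.28 ± 0.17). Aldoa shares its symbol with another identifier and was not counted. Gapdh (0.56 ± 0.049), Pkm (0.50 ± 0.046) and Ldha (0.53 ± 0.066) had higher means on day 5 and did not reach the limit, and the other glucose transporter gene, Slc2a1, was nearly level (0.15 ± 0.08). Pfkp had no call without WT7 of experiment 2 (0.89). Of 19 cholesterol synthesis genes 1 fell, Mvk (-1.20 ± 0.12). Of 20 cell cycle genes 3 rose and 2 fell: cyclin D2 and the inhibitor genes Cdkn1c (1.52 ± 0.44) and Cdkn1a rose while Ccnd1 (-1.30 ± 0.18) and Ccne1 (-1.36 ± 0.07), the cyclins D1 and E1, fell. For Ccnd2 the day 3 libraries held 68.3, 71.7, 64.1 and 72.8 CPM and the day 5 libraries 252, 242 and 296 CPM, all higher than on day 3, with a log2 fold change of 1.96 ± 0.077 (SE, adjusted p = 2.24e-06). Ccne1 levels ran at 150.3, 148, 129.6 and 125 CPM on day 3 and at 51.7, 55.7 and 53.5 CPM on day 5, all lower than on day 3. The replication genes Mcm3 (0.017 ± 0.052) and Mcm7 (0.083 ± 0.053) did not pass. Cdkn1a changed by 1.13 ± 0.28 (SE, adjusted p = 0.0163), with 212, 181 and 56.9 CPM on day 5, the last within the day 3 range of 41.1 to 70.02 CPM, and it was also the member of 12 p53 targets that rose. Its call was lost without WT7 of experiment 1 on either day or WT34 of experiment 1 on day 3, and that of Cdkn1c without 5 of the 7 libraries in turn. Polycomb genes went both ways, with 4 of 18 rising and 2 falling, beside 7.05% and 7.95% of all tested genes. Cbx8 (2.55 ± 0.33) and Bmi1 (1.40 ± 0.15) were among those that rose, as was Phc2, which lost its call without WT7 of experiment 2. Phc1 (-1.21 ± 0.092) and Cbx7 fell. The Cbx7 level was 145, 145, 147 and 148 CPM on day 3 and 56.2, 51.6 and 47.6 CPM on day 5, all lower than on day 3, with a log2 fold change of -1.49 ± 0.072 (SE, adjusted p = 4.67e-06). The core enzyme genes Ezh2 (0.22 ± 0.091), Suz12 (0.20 ± 0.057) and Eed (0.087 ± 0.098) did not pass. Among 10 tested amino acid stress genes, 3 fell, Slc7a11 (-1.62 ± 0.11), Trib3 (-1.11 ± 0.25) and Cebpb (-1.17 ± 0.33), and Ddit4 rose (1.11 ± 0.07); without WT7 of experiment 2 on day 5 only Slc7a11 among the 4 kept its call.

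Imprinted genes rose in 10 of 21 members, all tested, and fell in 4. The growth factor gene Igf2 and the neighbouring noncoding RNA gene H19 rose together. Igf2 was at 19.4, 25.8, 20.1 and 26.2 CPM on day 3 and at 206, 248 and 271 CPM on day 5, each above the day 3 range, with a log2 fold change of 3.43 ± 0.13 (SE, adjusted p = 2.70e-06). For H19 the day 3 libraries held 4.95, 6.72, 6.37 and 8.17 CPM and the day 5 libraries 40.02, 71.9 and 45.8 CPM, each above the day 3 range, with a log2 fold change of 3.01 ± 0.26 (SE, adjusted p = 1.24e-04). Sgce (1.85 ± 0.14) and Mest rose as well. The falling members were Snrpn (-1.52 ± 0.16), Magel2 (-1.08 ± 0.23) and the noncoding RNAs Rian and Mirg (-1.33 ± 0.13). Their neighbour Meg3 was lower without reaching the fold limit (-0.95 ± 0.09), and Dlk1, a coding gene of that cluster, rose from at most 1.67 CPM to at least 3.56 CPM. Without WT7 of experiment 2 on day 5 the counts were 5 and 3 of 21, and Peg3, Ndn, Usp29 and Plagl1 were among those that lost the call, as was Magel2. Peg3 and Ndn also fell short of the fold limit with line within experiment as a block (0.96 and 0.90).

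Markers of other lineages were counted to show what else the cultures held, and in bulk samples fewer cells of a type and less RNA per cell cannot be told apart. Mesoderm genes rose in 4 of 8 tested members of 16 listed, and their summed level was 14.6 to 53.9 CPM on day 3 and 28.5 to 117 CPM on day 5. Without WT7 of experiment 2 on day 5, 1 rose and 1 fell. Foxc2 and Meox1, too low to test, were 8.51 and 3.17 CPM in that library and at most 0.605 and 0.388 CPM in the others, so these were high in 1 library. The primitive streak gene T had its highest level there. T levels ran at 4.32, 1.79, 4.22 and 2.12 CPM on day 3 and at 8.4, 9.63 and 79.9 CPM on day 5, each above the day 3 range. Its log2 fold change without that library was 1.57, and its call (log2 fold change 3.17 ± 0.76, adjusted p = 0.0196) was lost with line within experiment as a block (adjusted p = 0.056). Tbx6 was 6.28 CPM there and below 1.5 CPM elsewhere, and did not pass without it (0.86). Definitive endoderm genes rose in 3 of 10 members, Cxcr4 first. The Cxcr4 level was 0.836, 1.86, 1.56 and 0.928 CPM on day 3 and 15.7, 14.98 and 39.6 CPM on day 5, each above the day 3 range, with a log2 fold change of 4.27 ± 0.37 (SE, adjusted p = 1.26e-04). Sox17 did not pass (0.72 ± 0.38). Visceral endoderm genes fell in 2 of 6 tested members of 11 listed, Amn (-2.38 ± 0.43) and Cubn (-1.53 ± 0.36), and Cubn spanned 9.89 to 117 CPM among the day 3 libraries and did not pass without WT7 of experiment 2 on day 5. Afp and Apoa1 were below 0.4 CPM in every library. In the smooth and cardiac muscle list 3 of 8 tested genes of 9 listed rose and 1 fell. Acta2, the smooth muscle actin gene, rose. Acta2 was at 13.8, 11.4, 4.81 and 5.12 CPM on day 3 and at 144, 157 and 66.9 CPM on day 5, all higher than on day 3, with a log2 fold change of 3.66 ± 0.088 (SE, adjusted p = 4.36e-07). Myl4 and Myh7 reached at most 8.17 and 8.91 CPM. Blood and endothelial genes fell in 3 of 7 tested members of 13 listed and 1, Kdr, rose (2.36 ± 0.59, adjusted p = 0.0666 with line within experiment as a block), and the globin genes Hbb-bh1 and Hba-x had 0 counts in all 7 libraries. With line within experiment as a block 1 of the 7 fell and none rose, with Tek and Pecam1 at adjusted p of 0.0673 and 0.0667, and without WT7 of experiment 2 on day 5 2 rose and 2 fell. In the non-neural ectoderm list 3 of 8 tested genes of 10 listed rose and 1 fell, with a rise of Tfap2c (1.31 ± 0.19) and a fall of the epithelial factor Grhl2 (-1.84 ± 0.12).

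Fibroblast genes mark feeder cells and also mesenchyme, and 4 of 7 tested members of 10 listed rose and 2 fell. The fibrillar collagen gene Col1a2 rose. For Col1a2 the day 3 libraries held 7.66, 7.01, 5.78 and 5.38 CPM and the day 5 libraries 47.7, 52.1 and 54.8 CPM, all higher than on day 3, with a log2 fold change of 3.01 ± 0.12 (SE, adjusted p = 2.31e-06). Col1a1 rose with it (2.49 ± 0.21), while Dcn, a proteoglycan gene of fibroblasts, fell. Dcn levels ran at 4.95, 3.79, 2.67 and 1.37 CPM on day 3 and at 0.454, 0.466 and 0.338 CPM on day 5, all lower than on day 3, with a log2 fold change of -2.97 ± 0.39 (SE, adjusted p = 5.34e-04). Lum lay below 0.15 CPM in every library. The summed level of the list was 50.1 to 53.9 CPM on day 3 and 94.5 to 114 CPM on day 5, and its part in the other changes was not tested.

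Other list counts changed without WT7 of experiment 2 on day 5. Neural progenitor genes had 7 rising and 1 falling of 15, neuronal genes 3 and 7 of 15, and neural crest genes 8 rising of 10. Hindbrain genes had 6 rising and 1 falling of 7, roof plate genes 7 and 3 of 12, and Wnt genes 14 and 2 of 28. Axon guidance genes had 10 and 2 of 18, cell cycle genes 2 and 2 of 20, and DNA methylation genes 1 and 4 of 13. For cardiac sarcomere genes the counts were 4 and 1 of 8, and for non-neural ectoderm genes 2 and 1 of 8. Naive genes then had 3 rising and 6 falling of 11, midbrain genes 5 rising and 1 falling of 12, primitive streak genes 1 rising and 2 falling of 6, mesoderm genes 1 rising and 1 falling of 8, definitive endoderm genes 2 rising of 10, imprinted genes 5 rising and 3 falling of 21, visceral endoderm genes 2 rising and 1 falling of 6, fibroblast genes 3 rising and 1 falling of 7, and cholesterol genes none rising and 3 falling of 19. Members described nowhere else that lost their call without it were Epcam, Klf5, Fabp7, Tfap2a, Robo2, Tex19.1, Foxc1, Pdgfra, Prrx1, Cpm, Gata3, Thy1 and Lox. With line within experiment as a block, primitive streak genes had none rising and 1 falling of 6 and mesoderm genes 2 rising of 8.

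On day 4, WT7 and WT34 were sampled in experiment 2. In WT7 of experiment 2, on the log2(CPM + 1) scale, the median share of the day 3 to day 5 change already present on day 4 was 57.6% over 790 genes that rose and 55% over 818 that fell, taking genes that changed by more than 1 in that line. The forebrain list had the largest median share, 96.4% over 8 genes, and the Wnt list 71.5% over 15. Neural crest genes had 40.8% over 7 and imprinted genes 43.5% over 14. These are values of 1 culture per day. The daily means below rest on experiment 1 alone on day 0 and on experiment 2 alone on days 1, 2 and 4. Mean Zeb1 levels of days 0 to 5 were, in order, 6.09, 8.18, 3.11, 2.33, 18.9 and 40.5 CPM, so its lowest mean was on day 3. Id1 was 15.0 CPM on average on day 0, between 1.36 and 2.48 CPM from day 1 to day 3, and 10.3 CPM on day 4. Axin2 went through its lowest mean of 7.52 CPM on day 2 and reached 46.6 CPM on day 4. Prph passed from 6.17 CPM on day 0 to a highest mean of 133 CPM on day 2 and was 14.4 CPM on day 4. T was 60.4 CPM on day 4, against 3.11 CPM on day 3.

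**Figure D4:**
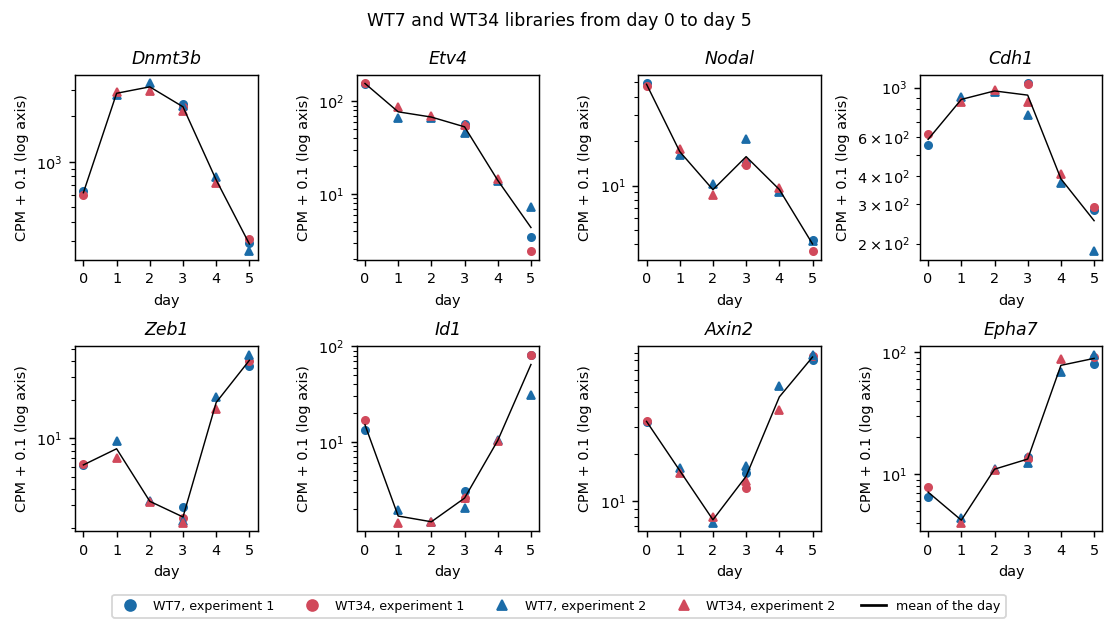
CPM plus 0.1 on a log axis in the WT7 and WT34 libraries of days 0 to 5 for 8 genes. Circles are experiment 1 (days 0, 3 and 5) and triangles experiment 2 (days 1 to 5), blue is WT7, red WT34, and the line joins the daily means. Dnmt3b, Etv4 and Cdh1 fall between day 3 and day 5, and Zeb1, Id1 and Axin2 rise after a low between days 2 and 3.

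WT70, the WT line of experiment 3, had 1 library on each day, so its values carry no test. The labels do not say how WT70 was derived. The paper made the mock-transfected control clones of its catalytic mutant from WT7, so WT70 may not be independent of WT7. Of the 2477 changed genes, 97.4% moved the same way in WT70 on the log2(CPM + 1) scale, beside 78.6% of the genes tested that did not pass. Rising genes had a median change of 1.28 in WT70 and 1.19 in the mean of WT7 and WT34, and falling genes -1.25 and -1.16. Slc2a3 went from 583 to 3124 CPM, Zeb1 from 2.52 to 51.9 CPM, Etv4 from 47.5 to 2.69 CPM and Cdh1 from 875 to 99.8 CPM. Fosb was at 0.873 CPM on day 3 and 0.617 CPM on day 5, so the rise seen in experiment 1 was not present in WT70. H19 rose from 2.82 to 11.7 CPM.

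**Figure D5:**
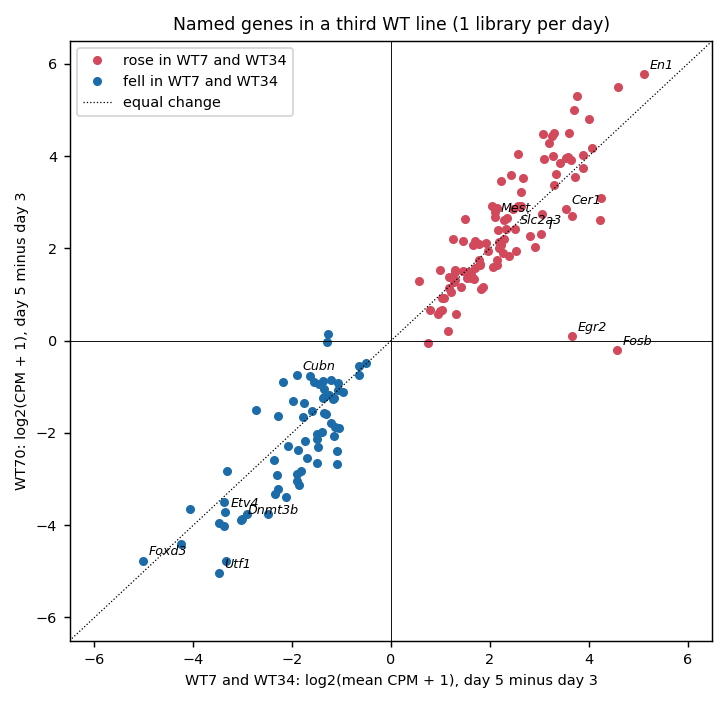
Change from day 3 to day 5 of the named genes that passed, in log2(CPM + 1), with the mean of WT7 and WT34 on the x axis and WT70 on the y axis. Red genes rose and blue genes fell in WT7 and WT34, and the dotted line marks equal change. Fosb and Egr2 lie near 0 in WT70, while nearly all the others lie in the same quadrant on both axes.

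The Tet1 KO lines KO1 and KO15 passed the same days in the same experiments, and the difference of the WT and KO changes was tested in 14 libraries. Tet1, the altered gene, lay between 47.8 and 82 CPM in the 7 KO libraries and between 108 and 252 CPM in the 7 WT libraries. It passed for 1824 of 18080 genes (10.1%), with 830 where the WT change was higher and 994 where it was lower, and for 680 of the 2477 genes changed in WT. Midbrain genes had 6 of 12 tested members with a higher WT change and 2 with a lower one, and roof plate genes 7 and 1 of 13. Wnt8b rose in WT with a log2 fold change of 7.06 ± 0.46 and was at most 0.337 CPM in every KO library on day 5. Fezf2 (difference 6.57 ± 1.45) and En1 (difference 4.30 ± 0.94) also had higher WT changes. The opposite held for cardiac sarcomere genes, with 7 of 9 lower in WT and none higher, and mesoderm genes, with 9 of 16 lower. Imprinted genes were lower in WT in 10 of 21: Igf2 reached 1135 to 1843 CPM in KO on day 5 (difference -2.60 ± 0.24). Cdh1 fell further in WT (difference -1.05 ± 0.10), whereas Nodal (difference 2.35 ± 0.49), Pou5f1 (difference 2.16 ± 0.24) and L1td1 (difference 1.74 ± 0.12) fell further in KO. Mean Nodal in KO was 112 CPM on day 3, above every WT library, and 5.39 CPM on day 5. None of the 19 cholesterol synthesis genes passed this test.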

How the data were processed

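Stranded poly-A RNA-seq libraries were trimmed with Trim Galore 0.6.4 and quantified with Salmon 0.14.1 against mm10 transcripts by the authors, who summed them to genes with tximport. The deposited estimated counts are not whole (73.9% of the values were), and were rounded. The authors also deposited TPM values, which correct for transcript length and hold no depth. The tables held 54281 genes, of which 205 had no symbol and 100 symbols were shared by more than 1 gene, so these were left out of the lists. In the sum of estimated counts, reads shared by near-identical genes are divided by Salmon, which can blur paralogs. Positions are from GENCODE M21 on mm10, and promoter windows from RefSeq.

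The 7 libraries were tested in R 4.3.3 with edgeR 4.0.16 (quasi-likelihood F test, TMM, at least 10 counts by filterByExpr and 15 in all), with experiment and day as terms and Benjamini-Hochberg adjustment. The scale of levels was CPM with TMM factors over 36 libraries. Where a day held 3 counts or fewer in all, the ratio of counts is given with its exact 95% interval, which covers counting error only. Depth was 12780148 to 26307363 counts per library. The difference of the WT and KO changes was tested as an interaction in 14 libraries. WT70 had 1 library per day and was not tested. Alternatives used DESeq2 1.42.0, limma 3.58.1 on log2(TPM + 1) and other settings. Scripts were tested on simulated data.

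The genes named were the 12 largest rises and falls in fold among those with at least 20 CPM on the higher day and no overlap of libraries, the 8 largest rises and falls in TPM, and in each of 36 lists up to 4 passing members with the smallest p, the members at both ends and those whose call depends on 1 library. Other list members were named after their values were seen, mostly to show members that did not pass, and some named genes are not reported here. The libraries and lists were chosen with earlier results of these data known. Libraries of the same line and experiment come from the same cell line, which pairs them; the correlation of their deviations from the day means was 0.091, 0.141 and 0.183 over 16508 genes. No 2 libraries held the same counts, the closest pair differing in 26770 genes.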

Additional observations from a re-analysis of the deposited data

Results flagged for a closer look

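Among 178 named genes, 9 had 1 of the 4 day 3 libraries further from the others than Dixon's 95% limit allows, and chance alone gives about 1 in 20. In WT34 of experiment 1, En1 was high at 0.429 CPM (others 0.111 to 0.148 CPM), while Meis2 at 2.07 CPM and Mael at 0.215 CPM were low. WT7 of experiment 1 was high for Esrrb at 10.7 CPM (others 6.37 to 7.08 CPM), Nkx6-1 at 1.602 CPM and Tdrd12 at 4.04 CPM. WT7 of experiment 2 was high for Nodal at 20.4 CPM (others 13.6 to 14.3 CPM) and for Cyp26c1 at 0.0741 CPM, a single count, and low for Tfap2c at 3.18 CPM (others 4.29 to 4.39 CPM).

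The change from day 3 to day 5 differed between WT and KO lines, by the interaction test, for 76 of 183 named genes, beside 1824 of 18080 genes tested (10.1%) and 680 of the 2477 genes changed in WT. The named genes were chosen largely by their WT change. Lower in WT, as log2 differences of the 2 changes, were the cardiac myosin genes Myh7 (-5.36) and Myh6 (-4.83), the endoderm genes Cpm (-4.66) and Gata4 (-4.07), the forebrain factor Hesx1 (-4.41) and Prdm1 (-4.04). Higher in WT were T (4.15), En1 (4.30), Cyp26c1 (4.75), Cnpy1 (5.54), Fezf2 (6.57) and Wnt8b (6.57). These values compare changes and not levels. In KO, mean T was 206 CPM on day 3 and 113 CPM on day 5, and its KO levels were above every WT library on both days. Mean Cnpy1 in KO went from 6.88 CPM on day 3 to 0.178 CPM on day 5. The Cpm and Prdm1 libraries of the 2 days overlapped in WT, and Cnpy1, Gata4 and Prdm1 did not pass in WT.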

How the results depend on the processing

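The 2477 changed genes became 2641 under DESeq2 and 2469 under RLE size factors, 2850 without the low-count filter, 2334 without the experiment term, 3328 with all 36 libraries, 2778 with 1 summed library per line and day, 3012 in experiment 1 and 2906 in experiment 2. A log2 limit of 1.5 left 1366 (626 rising and 740 falling). Limma on log2(TPM + 1) called 1037, with a pseudocount of 0.1 it called 1451, and without the low-value filter 876. Leaving out 1 library gave 2253 to 3055, the highest without WT7 of experiment 2 on day 5 (1563 rising and 1492 falling, 2058 shared with the 2477). With line beside experiment as a block the count was 2401. With line within experiment, which pairs libraries of the same line and experiment, it was 2120, of which 2030 were shared. The difference from KO passed for 1149 genes at a limit of 1.5, for 1653 with line as a block, and for 1620 to 2133 with 1 library left out. The same-sign share in WT70 was 95.76% on log2(TPM + 1), 98.47% for log2 fold changes beyond 2 and 99.16% at 10 CPM or more. Cnpy1 (0.013) was -2.136 in experiment 1 alone and -2.129 without WT7 of experiment 2 on day 5, and between -2.129 and 0.5524 with any library left out, Prdm1 (0.31) was -1.108 and -1.097 under the same settings, and between -1.097 and 0.7985 with any left out, and Gata3 was -0.146 on log2(TPM + 1) with and without the filter and -0.3215 with a pseudocount of 0.1. The cause was not tested. Depth limits genes below about 1 CPM, and 42 tested genes had 3 counts or fewer on one day.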

Other observations

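Immediate early genes were looked at after the values of Fosb and Egr2 were seen, so their counts are a description only. Of 14 genes, 13 were lower in WT7 of experiment 2 than in both libraries of experiment 1 on day 5, as were 39.8% of the 16508 genes tested. Egr1, a zinc finger gene induced by growth factors, was at 295 and 390 CPM in experiment 1 and 7.56 CPM in experiment 2, and between 35.99 and 58.2 CPM on day 3. Fos was at 42.6 and 60.3 CPM against 2.30 CPM, and Egr3 at 57.0 and 67.4 CPM against 0.54 CPM. Ier3 was the exception, at 2.65 and 2.79 CPM against 15.5 CPM. KO libraries of experiment 1 on day 5 held Egr1 at 128 to 158 CPM, the KO library of experiment 2 held 11.3 CPM, and WT70 held 3.87 CPM.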
